A study of Homo sapiens with 4 samples.

Results

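The genes examined here were the partners of the JAZF1-SUZ12 fusion, the core of Polycomb repressive complex 2 (PRC2) and the demethylases that remove its mark. They were chosen by symbol as JAZF1, SUZ12, EED, EZH1, EZH2, RBBP4, RBBP7, KDM6A and KDM6B, and all 9 were present among the 35606 genes of the count table. All 9 also passed the filter on low counts. RNA was sequenced from 2 libraries of K562 cells expressing JAZF1-SUZ12 and 2 libraries of mock K562 cells. K562 is a human leukaemia line with erythroid features that carries the BCR-ABL1 fusion, so both groups share that background. How the fusion was introduced, what the mock cells received, and whether a line came from 1 clone are not given in the sources used here. Nothing in the labels says that the libraries of a group came from separate cultures, so p-values measure the spread between these samples, which may be technical.

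PRC2 places methyl groups on lysine 27 of histone H3 (H3K27), a mark of silenced developmental genes. EZH2 or its paralog EZH1 is the catalytic subunit, SUZ12 is the scaffold, EED reads the mark and stimulates the enzyme, and RBBP4 or RBBP7 binds histones. KDM6A and KDM6B take the methyl groups off again. JAZF1 is a zinc finger protein associated with the NuA4/TIP60 acetyltransferase complex, and its fusion to SUZ12 recurs in endometrial stromal sarcoma.

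In that tumour the reported fusion joins exons 1 to 3 of JAZF1 to exons 2 to 16 of SUZ12. The exons at the join are shown because the counts of both genes turn on how much of each the added transcript carries. The borders of the construct in these cells are not given in the sources used here, so the sequences are those of GENCODE release 29 on GRCh38, written 5′ to 3′. Capitals mark the bases of the codon that the join splits, of which 1 comes from JAZF1 and 2 come from SUZ12.
JAZF1 exon 3, chr7:27895220-27895416, minus strand: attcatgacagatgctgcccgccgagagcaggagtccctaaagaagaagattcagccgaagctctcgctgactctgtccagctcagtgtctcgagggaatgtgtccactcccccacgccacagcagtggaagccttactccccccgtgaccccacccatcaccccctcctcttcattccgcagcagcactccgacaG
SUZ12 exon 2, chr17:31940286-31940332, plus strand: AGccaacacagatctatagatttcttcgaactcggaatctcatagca
SUZ12 exon 3, chr17:31940422-31940486, plus strand: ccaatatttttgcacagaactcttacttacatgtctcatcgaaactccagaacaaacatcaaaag
Exons 1 to 3 hold 385 of the 729 coding bases of JAZF1, and exons 2 to 16 hold 1943 of the 2217 coding bases of SUZ12. Joined, they make 2328 bases, or 776 whole codons, so this join keeps the reading frame. SUZ12 exon 3 is shown as an example of a stretch shared with a near copy, since every 31-base word in it also occurs in the transcribed pseudogene SUZ12P1.

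The libraries held between 17260936 and 24423028 estimated counts, and the 9 genes took between 0.0955% and 0.11% of them. The labels give uterus as the source and K562 as the cell line. The 7 erythroid genes examined (HBG1, HBG2, HBE1, HBZ, GATA1, KLF1 and TFRC) lay between 155 and 3971 CPM (counts scaled to the library total) in every library. Their summed level was 10982 to 11337 CPM in mock and 12931 to 13085 CPM in JAZF1-SUZ12 libraries. Of 8 stromal genes (DCN, LUM, COL1A1, COL1A2, COL3A1, PGR, ESR1 and PDGFRA), LUM was at 0 everywhere and COL3A1 had at most 3 counts in any library. The stromal sum was 14.1 to 14.8 CPM in mock and 32.2 to 33.2 CPM in JAZF1-SUZ12 libraries. COL1A1 was at 5.18 and 6.39 CPM in mock and at 21.4 and 21.3 CPM in JAZF1-SUZ12 libraries, where it made up most of the sum. The part of these markers in the results below was not tested.

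Compared with mock, JAZF1, SUZ12 and EZH1 rose in JAZF1-SUZ12 libraries, EED and EZH2 fell, and RBBP4, RBBP7, KDM6A and KDM6B did not pass the test. A gene was called at a Benjamini-Hochberg adjusted p under 0.05 in edgeR's quasi-likelihood test over all 14750 genes tested. Of the 9 genes, 5 were called, 3 higher and 2 lower. Those called higher include JAZF1 and SUZ12, parts of the added transcript, whose rise follows from the design. The count of members called is therefore not a result about the list. The background was 24.7% of all genes tested, with 13.3% called higher and 11.4% called lower. DESeq2 called 4 of the 9, without EZH1, against a background of 16.3% (9.19% higher and 7.13% lower). The median log2 fold change of the 9 genes was 0.08, against 0.0032 over all genes tested. The CPM values of the groups did not overlap for 8 of the 9 genes, KDM6A being the exception. That pattern held for 61% of all genes tested, so on its own it sets no gene apart. These are levels in bulk RNA, in which fewer cells with a transcript and less of it per cell cannot be told apart.

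**Figure D1:**
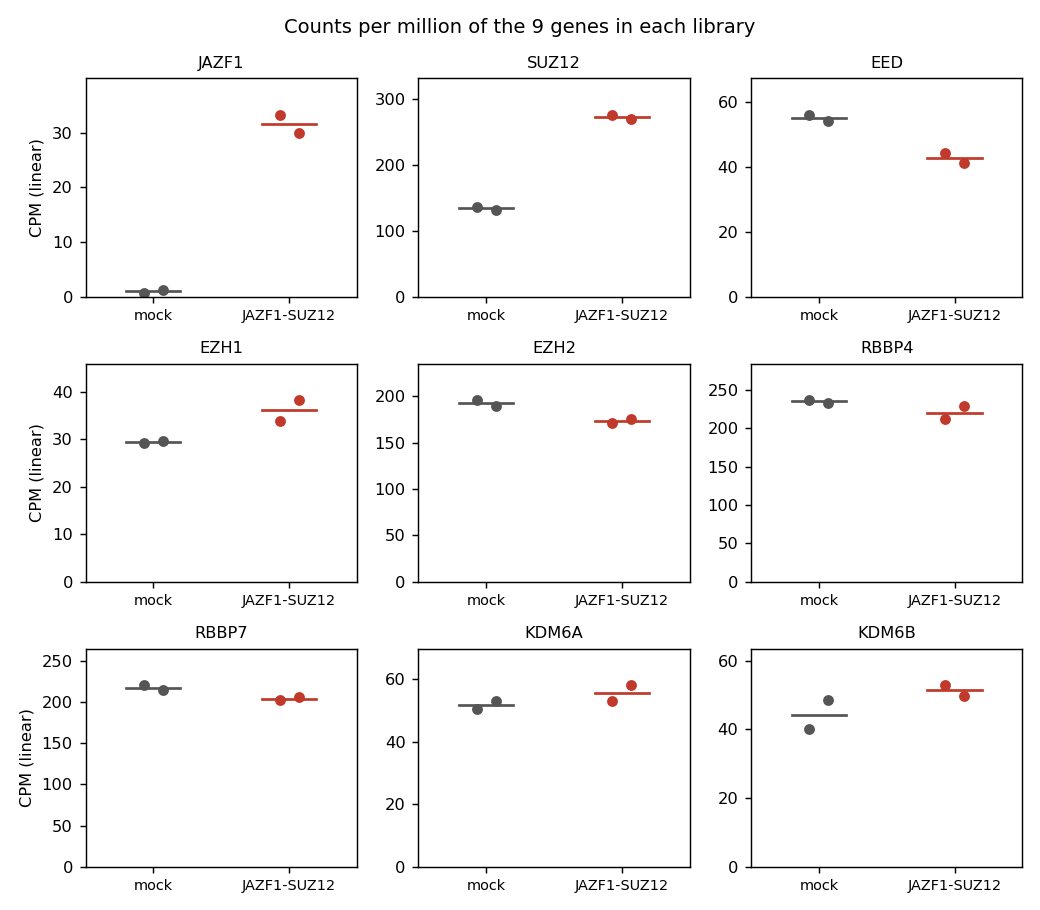
Level of each of the 9 genes in CPM (vertical axes, linear, starting at 0) in 2 mock and 2 JAZF1-SUZ12 libraries; points are libraries and bars are group means. JAZF1 goes from about 1 CPM to 29.9 and 33.3 CPM and SUZ12 from below 137 CPM to above 269 CPM, and EED from above 54 CPM to 44.1 and 41.0 CPM.

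Both fusion partners were higher in each JAZF1-SUZ12 library than in either mock library, as the labels require. JAZF1 (chromosome 7, 27830573 to 28180743, minus strand) had 0.587 and 1.27 CPM in mock, compared with 33.3 and 29.9 CPM once the fusion was expressed. The mock values rest on 12 and 27 counts. Their exact 95% binomial intervals, 0.303 to 1.03 and 0.835 to 1.84 CPM, overlap and cover counting error only. On the log2 scale JAZF1 was 5.05 ± 0.20 (standard error) higher by edgeR, with an adjusted p of 1.07e-10, the 30th highest of the genes tested. The difference was 5.70 against mock replicate 1 alone and 4.60 against mock replicate 2 alone. The mock cells thus held little JAZF1 RNA, and the size of the fold depended on which mock library it was set against.

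SUZ12 (chromosome 17, 31937018 to 32001045, plus strand) was already abundant in mock cells, at 136 and 131 CPM, and reached 275 and 269.5 CPM with the fusion. This was a 2.01-fold rise (log2 fold change 1.01, standard error 0.05; edgeR, adjusted p = 1.15e-09). In rank it was the 1092nd highest fold of the genes tested, far below JAZF1. The difference between the libraries of a group was small for SUZ12, with a standard deviation of 3.28 CPM in mock and 4.19 CPM with the fusion.

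The amounts gained by the partners were set against each other. After the mock mean was subtracted, JAZF1 gained 32.3 and 29.003 CPM in JAZF1-SUZ12 replicates 1 and 2. SUZ12 gained 142 and 136 CPM. For each CPM gained by JAZF1, SUZ12 therefore gained 4.38 CPM in replicate 1 and 4.68 CPM in replicate 2 (4.53 ± 0.211, SD, n = 2). In the reported fusion the SUZ12 coding segment is 5.05 times as long as the JAZF1 segment. Divided by those coding lengths, the gain was 84.0 and 75.3 CPM per kb for JAZF1 and 72.9 and 69.9 CPM per kb for SUZ12. The SUZ12 gain per kb was 0.869 and 0.928 of the JAZF1 gain, lower in both libraries. This gain made up 51.5% and 50.4% of all SUZ12 counts in the JAZF1-SUZ12 libraries. The subtraction takes the endogenous genes to be at their mock level, which gene-level counts cannot test, since they do not separate fusion from endogenous reads. All of these gains also rest on the deposited counts. In the authors' deposited table, described below, the mean of JAZF1 was 1.79 times that of the deposited counts, and that of SUZ12 1.03 times. The ratio of the gains depends on which of these is used, and was computed from the deposited counts only.

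The pseudogene SUZ12P1, a transcribed partial copy of SUZ12 on the same chromosome, was measured as a check on the SUZ12 counts. It was at 17.5 and 19.6 CPM in mock and at 18.7 and 19.7 CPM in JAZF1-SUZ12 libraries. The groups overlapped, and the log2 fold change of SUZ12P1 was 0.03 with a 95% interval from -0.19 to 0.25 (edgeR, adjusted p = 0.869). Every 31-base word of SUZ12 exons 3, 4, 6 and 9 occurs in SUZ12P1, and none from exons 2, 5 and 10 to 16 does. Over all annotated transcripts, 9.16% of SUZ12 words were shared with SUZ12P1. With SUZ12P1 counts added to SUZ12, the log2 fold change of SUZ12 was 0.92. Of the 9 pseudogenes named after a member in the table, SUZ12P1 was the only one with more than 10 counts in any library.

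**Figure D2:**
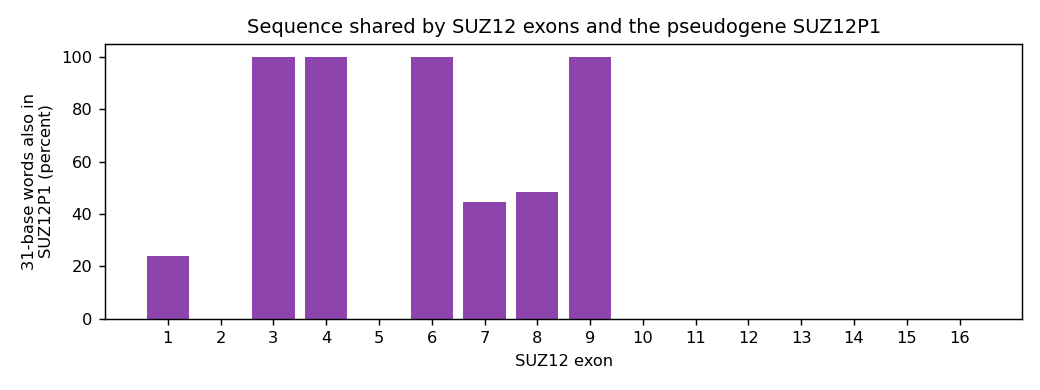
Share of the 31-base words of each SUZ12 exon (horizontal axis, exon number) that also occur in annotated SUZ12P1 transcripts (vertical axis, percent). Exons 3, 4, 6 and 9 reach 100%, and the exons from 10 onward share none.

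Genes in the regions of the partner genes were read as well. TAX1BP1 overlaps the end of JAZF1 on the annotation, and reads there can be hard to assign. TAX1BP1 was at 120 and 114 CPM in mock and at 120 and 119 CPM in JAZF1-SUZ12 libraries, and was not called (log2 fold change 0.01; edgeR, adjusted p = 0.901). Of 3 neighbours of JAZF1, 1 was called, against 24.7% of all genes tested. CREB5, a transcription factor gene 119 kb away, rose from 3.52 and 5.12 to 8.40 and 6.96 CPM (log2 fold change 0.80; edgeR, adjusted p = 0.0115). Without mock replicate 1 it was not called (log2 fold change 0.55, adjusted p = 0.0836). The 8 genes listed around SUZ12 lay between 6.83 and 1112 kb from it. Of these 8, 1 was called higher and 1 lower, a share near the 24.7% of all genes tested. UTP6, which encodes a ribosome biogenesis factor and lies 35.3 kb from SUZ12, fell from 106 and 99.3 to 82.7 and 86.4 CPM (log2 fold change -0.30; edgeR, adjusted p = 0.00118). RAB11FIP4, a membrane traffic gene 399 kb from SUZ12, rose by 0.27 on the log2 scale (edgeR, adjusted p = 0.0145). It was not called with DESeq2 or without mock replicate 1 or JAZF1-SUZ12 replicate 2 (adjusted p = 0.0921, 0.149 and 0.0737). LRRC37B, 6.83 kb from SUZ12, had a log2 fold change of 0.31 and was not called (edgeR, adjusted p = 0.152).

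EED was the one PRC2 core subunit that fell by more than 20%. EED (chromosome 11, 86244544 to 86278813) was at 56.0 and 54.2 CPM in mock and at 44.1 and 41.0 CPM in JAZF1-SUZ12 libraries. Both JAZF1-SUZ12 libraries were below both mock libraries. EED changed by -0.40 ± 0.07 (standard error) on the log2 scale, or -24.1%, with an adjusted p of 0.000544 in edgeR. The change stayed between -0.46 and -0.33 when any 1 library was left out and was called each time (adjusted p between 2.34e-06 and 0.00329). Still, 22.2% of all genes tested had a larger absolute log2 fold change than EED.

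The catalytic subunits moved in opposite directions in the edgeR fit, but neither was called in the authors' deposited table, described below. EZH2 (chromosome 7, 148807383 to 148884321), the form that predominates in dividing cells, was at 196 and 189.7 CPM in mock and at 171 and 175 CPM in JAZF1-SUZ12 libraries. The groups of EZH2 did not overlap, and it changed by -0.17 ± 0.05 (standard error) on the log2 scale (edgeR, adjusted p = 0.0134). Without mock replicate 1, EZH2 was not called (adjusted p = 0.0833). EZH1 (chromosome 17, 42700275 to 42745049), the form known for persisting in resting cells, was at 29.2 and 29.5 CPM in mock and at 33.9 and 38.2 CPM in JAZF1-SUZ12 libraries. Its JAZF1-SUZ12 libraries were farther apart than its mock libraries, with a standard deviation of 3.08 against 0.271 CPM. EZH1 rose by 0.28 ± 0.08 (standard error) on the log2 scale (edgeR, adjusted p = 0.0159). The EZH1 call was lost with DESeq2 (adjusted p = 0.104), without mock replicate 1 (0.0686) and without JAZF1-SUZ12 replicate 2 (0.206).

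The histone-binding subunits RBBP4 and RBBP7 were the most abundant members by CPM in mock and differed least between groups among the PRC2 core genes. RBBP4 (chromosome 1, 32651142 to 32686211) was at 237 and 233 CPM in mock and at 212 and 229 CPM in JAZF1-SUZ12 libraries. RBBP7 (chromosome X, 16839283 to 16870414) was at 220.3 and 214 CPM in mock and at 202 and 206 CPM with the fusion. Both lay lower in both JAZF1-SUZ12 libraries, and neither was called. The log2 fold change was -0.11 for RBBP4, with a 95% interval from -0.21 to -0.01 (edgeR, adjusted p = 0.0955). RBBP7 also had a log2 fold change of -0.11, with an interval from -0.21 to -0.01 (edgeR, adjusted p = 0.0907). RBBP4 was called without JAZF1-SUZ12 replicate 2, with a log2 fold change of -0.16 (adjusted p = 0.0365). The paralogs share 0.0102% of the 31-base words of RBBP4, and EZH1 and EZH2 share none.

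The demethylase genes were not called. KDM6A (chromosome X, 44873177 to 45112602), a subunit of the KMT2C and KMT2D complexes, was at 50.4 and 53.1 CPM in mock and at 53.0 and 58.1 CPM in JAZF1-SUZ12 libraries, so its groups overlapped. Its log2 fold change was 0.08 with a 95% interval from -0.06 to 0.22 (edgeR, adjusted p = 0.401). KDM6B (chromosome 17, 7839904 to 7854796), an inducible demethylase, was at 40.2 and 48.4 CPM in mock and at 52.9 and 49.8 CPM with the fusion. Its mock libraries had the largest standard deviation in CPM of the 9 genes (5.80), and the higher of them lay just below the lower JAZF1-SUZ12 library. The log2 fold change of KDM6B was 0.19 with a 95% interval from 0.01 to 0.36 (edgeR, adjusted p = 0.114). It was 0.05 without mock replicate 1 (adjusted p = 0.755), and KDM6B was called without mock replicate 2 (0.32, adjusted p = 0.00862) and without JAZF1-SUZ12 replicate 2 (0.25, adjusted p = 0.0405).

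The authors' deposited table gives a comparison of the same groups, and its fold changes were set beside those from the counts. Of the 9 genes, 3 had an adjusted p under 0.05 in the authors' deposited table, namely JAZF1, SUZ12 and EED. Here too the rise of JAZF1 and SUZ12 follows from the design. The background in the authors' deposited table was 8.5% of the genes with an adjusted p, 4.93% higher and 3.57% lower. The log2 fold changes of JAZF1, SUZ12 and EED were 6.82, 1.26 and -0.47 in the authors' deposited table. The remaining members had adjusted p-values between 0.185 and 0.824 in the authors' deposited table. There EZH1 changed by 0.11 ± 0.15 (standard error) on the log2 scale, within its standard error (authors' adjusted p = 0.810). EZH2 changed by -0.16 ± 0.07 (standard error; authors' adjusted p = 0.185). KDM6B had the opposite sign there, at -0.22 ± 0.13 (standard error) on the log2 scale in the authors' deposited table, as did 12.5% of the 11826 genes with a mean of at least 50 counts. JAZF1 differed by 1.77 between the authors' deposited table and the counts, the second largest absolute difference among those 11826 genes, whose median was 0.0433. Its mean normalized count in the authors' deposited table, 602, was 1.79 times the depth-scaled mean of its deposited counts, whereas for EZH2 the same ratio was 1.00003. The SUZ12 ratio was 1.03. The step that makes the authors' deposited table differ from the deposited counts for JAZF1 is not given in the sources used here.

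**Figure D3:**
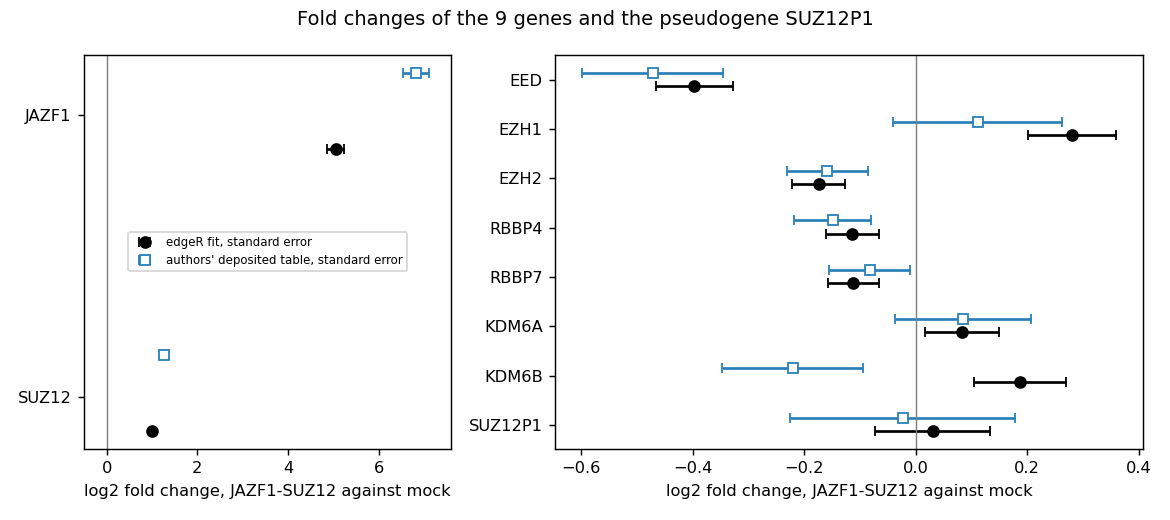
Difference between JAZF1-SUZ12 and mock libraries as a log2 fold change (horizontal axes) for the 9 genes and SUZ12P1; filled circles are the edgeR fit and open squares the authors' deposited table, each with its standard error. The values lie apart for JAZF1 (5.05 and 6.82) and on opposite sides of 0 for KDM6B (0.19 and -0.22).

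Levels were next compared between genes as CPM per kb of the longest annotated transcript. In mock the order was RBBP7 (53.8 ± 1.15), EZH2 (53.0 ± 1.19), SUZ12 (29.8 ± 0.731), RBBP4 (29.6 ± 0.309), EED (19.9 ± 0.465), KDM6A (8.73 ± 0.314), KDM6B (6.60 ± 0.864), EZH1 (6.35 ± 0.0586) and JAZF1 (0.294 ± 0.152; SD, n = 2 each). RBBP7 and EZH2, SUZ12 and RBBP4, and KDM6B and EZH1 did not differ beyond their spread. With the fusion, the SUZ12 gene count by this length became the highest at 60.7 ± 0.932, above RBBP7 at 50.6 ± 0.668 and EZH2 at 47.6 ± 0.746. EED was at 15.4 ± 0.797, and JAZF1 rose to 10.0008 ± 0.744, next to KDM6A at 9.37 ± 0.615 CPM per kb (SD, n = 2 each). The order rests on the length used. With the median transcript length, RBBP4 lay above RBBP7 and KDM6B above KDM6A in mock, the reverse of the order with the longest transcript. With the fusion, SUZ12 at 92.8 CPM per kb was then not the highest, below RBBP4 at 319 and RBBP7 at 238 CPM per kb. Neither length is known to be that of the added transcript, so the places of SUZ12 and JAZF1 with the fusion are not molar levels. By the coding lengths of the reported fusion, JAZF1 gained 84.0 and 75.3 CPM per kb and SUZ12 72.9 and 69.9 CPM per kb.

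The balance of PRC2 core RNA was then read from ratios between members. Per transcript length, there were 0.668 and 0.669 EED for each SUZ12 in mock, and only 0.260 and 0.247 with the fusion, a 2.64-fold lower ratio. EZH1 and EZH2 together went from 1.98 and 1.9998 for each SUZ12 to 0.888 and 0.940, 2.18-fold lower. Both ratios count fusion and endogenous SUZ12 RNA as one and scale both by the length of annotated SUZ12. The length of the added transcript is not given, so with the fusion they are not ratios of molecules. Within the subunits that the fusion does not contain, EED for each EZH1 plus EZH2 went from 0.337 and 0.335 to 0.293 and 0.263. The ratio of EZH1 to EZH2 went from 0.117 and 0.123 to 0.156 and 0.172, 1.36-fold higher. The difference between groups is the same for either length, but the ratio itself is not, its log2 value in mock being -3.06 with the longest and -1.27 with the median transcript. RBBP7 to RBBP4 was at 1.83 and 1.804 in mock and at 1.88 and 1.77 with the fusion, so its groups overlapped. KDM6B to KDM6A also overlapped, with 0.704 and 0.805 in mock and 0.882 and 0.756 with the fusion.

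Among the 7 ratios compared, the groups did not overlap for 5, including that of SUZ12 to JAZF1. For EED to SUZ12, EZH1 plus EZH2 to SUZ12 and SUZ12 to JAZF1, a term is part of the added transcript, so a shift follows from the design. Its size does not follow from the design alone. The log2 fold change of EED (-0.40) also enters EED to SUZ12, and those of EZH2 (-0.17) and EZH1 (0.28) enter EZH1 plus EZH2 to SUZ12. The other ratios without overlap were EZH1 to EZH2 and EED to EZH1 plus EZH2. The share of ratios without overlap among other genes was not computed. With 2 libraries against 2, the exact two-sided permutation test cannot give a p below 0.333, which was its value for those 5 ratios (0.467 after adjustment over the 7). That test therefore cannot pass 0.05 with this number of libraries. The difference in the log2 ratio of EZH1 to EZH2 was 0.45, against a standard deviation of 0.046 in mock and 0.101 in JAZF1-SUZ12 libraries. It was 0.0037 for RBBP7 to RBBP4, smaller than the spread in either group.

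**Figure D4:**
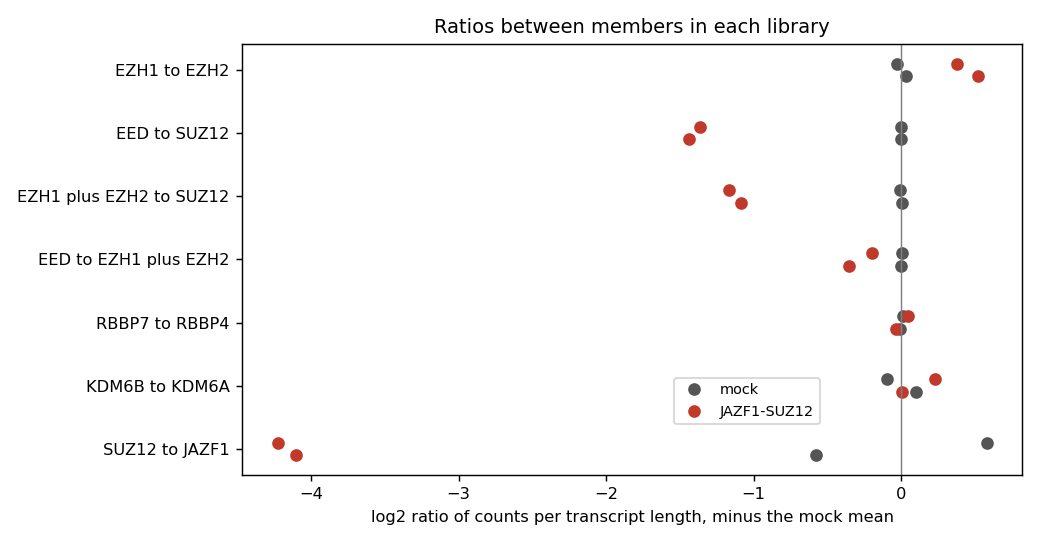
Log2 ratio of length-scaled counts between members in each library, minus the mock mean (horizontal axis), for the 7 ratios; grey points are mock and red points JAZF1-SUZ12 libraries. EED to SUZ12 differs from the mock mean by -1.40, EZH1 to EZH2 by 0.45, and the groups overlap for RBBP7 to RBBP4 and KDM6B to KDM6A.

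Other genes of the same pathways were read from lists by symbol. The accessory subunits of PRC2 steer the core complex to its targets. Of 9 listed, 8 were tested, and EZHIP, an inhibitor of EZH2, had at most 1 count in a library. Only PHF19, a Polycomb-like subunit that binds methylated H3K36, was called. That is 1 of 8, against 24.7% of all genes tested, so the count does not set the list apart. PHF19 was at 423 and 429 CPM in mock and at 471 and 483 CPM in JAZF1-SUZ12 libraries (log2 fold change 0.14; edgeR, adjusted p = 0.0205). PHF19 was not called without mock replicate 1 or without mock replicate 2 (adjusted p = 0.147 and 0.0793). The median log2 fold change of the 8 was 0.0026, close to the 0.0032 of all genes tested. The other 7, AEBP2, JARID2, PHF1, MTF2, EPOP, LCOR and LCORL, had log2 fold changes between -0.13 and 0.15.

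KDM6A works within complexes of the COMPASS family, which methylate H3K4. All 9 listed partners had log2 fold changes below 0, 7 of 9 when libraries were scaled by total counts alone. Of all 14750 genes tested, 7296 were below 0 in the main fit. The median was -0.16, and 4 of 9 were called lower against the 11.4% background, which is 1688 genes. When libraries were scaled by DESeq2 size factors, 5 of 9 were called lower, with 1739 genes called lower in all. With total counts it was 3 of 9, with 1351 genes in all. NCOA6, a coactivator subunit, was at 61.3 and 65.9 CPM in mock and at 54.3 and 53.3 CPM in JAZF1-SUZ12 libraries (log2 fold change -0.26; edgeR, adjusted p = 0.00687). ASH2L, a core subunit, changed by -0.16 on the log2 scale (adjusted p = 0.016), PAGR1 by -0.24 (0.0193) and the scaffold WDR5 by -0.16 (0.0407). No one of these calls held throughout. Without mock replicate 2 the adjusted p was 0.0521 for NCOA6, 0.0601 for ASH2L, 0.0886 for PAGR1 and 0.0765 for WDR5. PAGR1 was also lost with DESeq2 (0.106) and without JAZF1-SUZ12 replicate 2 (0.148). WDR5 was lost without any one library (adjusted p between 0.0765 and 0.142), with DESeq2 (0.126), with total counts (0.0714) and among genes with a mean of at least 50 counts (0.0651).

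RBBP4 and RBBP7 also serve the NuRD and SIN3 deacetylase complexes, the CAF-1 histone chaperone, the NURF remodeller and the HAT1 acetyltransferase. Of 20 listed subunits, 6 were called lower and 1 higher, against 11.4% and 13.3% of all genes tested, and the median log2 fold change was -0.07. CHD4, the NuRD remodelling enzyme, was at 738 and 744 CPM in mock and at 650.3 and 629.9 CPM in JAZF1-SUZ12 libraries (log2 fold change -0.23; edgeR, adjusted p = 0.000753). The NuRD subunits GATAD2A and MTA2 fell by 0.28 and 0.23 on the log2 scale (edgeR, adjusted p = 0.00117 and 0.00173). SMARCA1, the ATPase SNF2L of NURF, went the other way, from 3.82 and 6.06 to 12.1 and 9.95 CPM (log2 fold change 1.12; edgeR, adjusted p = 0.000755). These 4 calls held without any one library. HDAC2, a deacetylase, and CHAF1A, a CAF-1 subunit, changed by -0.17 and -0.19 on the log2 scale (edgeR, adjusted p = 0.0151 and 0.0136). HDAC2 was not called without mock replicate 1 or JAZF1-SUZ12 replicate 2 (adjusted p = 0.101 and 0.086), nor CHAF1A without mock replicate 2 or JAZF1-SUZ12 replicate 2 (0.0556 and 0.111). HAT1, the last of the 6, changed by -0.25 (edgeR, adjusted p = 0.00202) and was called without any one library. HDAC2, CHAF1A and HAT1 are outside the rule for named genes and were chosen after their values were seen.

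**Figure D5:**
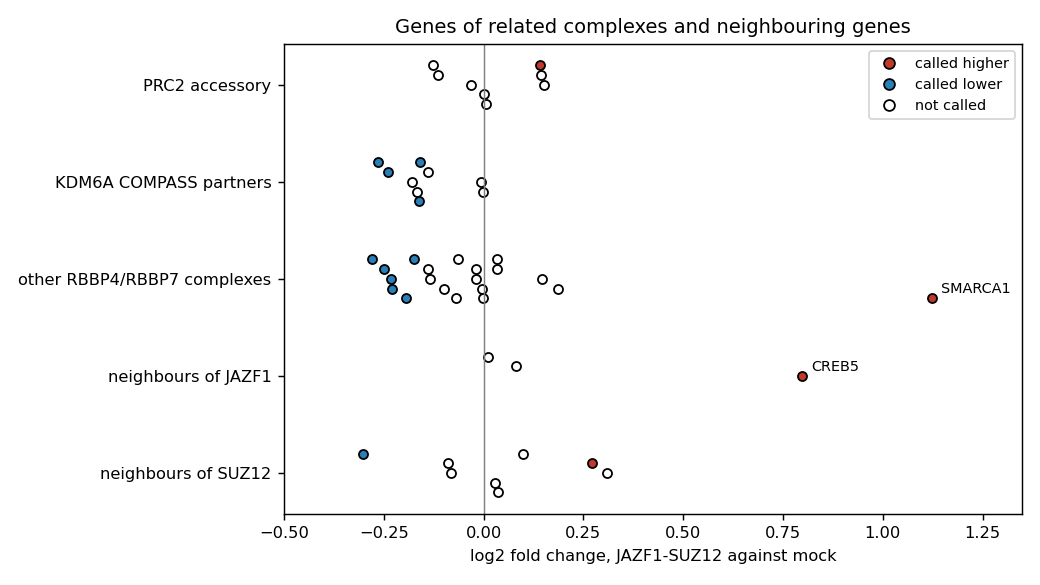
Difference between JAZF1-SUZ12 and mock libraries as a log2 fold change (horizontal axis) for each tested gene of 5 lists; red points were called higher, blue lower and white not called (edgeR, adjusted p under 0.05). All COMPASS partners lie below 0 (7 of 9 when scaled by total counts), PRC2 accessory subunits lie between -0.13 and 0.15, and SMARCA1 (1.12) and CREB5 (0.80) lie far to the right.

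Genes with the closest profile over the 4 libraries were taken by the distance between centred log2 CPM values, among 11625 genes with a symbol and a mean of at least 50 counts. For SUZ12 these were ACE, IL4R and AKAP12, at distances of 0.0232, 0.0331 and 0.0368, and their log2 fold changes were 1.02, 0.98 and 0.99. For EED they were GRWD1, PMP22 and MSTO1, at distances of 0.024, 0.0277 and 0.0308, with log2 fold changes of -0.38, -0.40 and -0.37. With 4 libraries in 2 groups, this distance is small for any gene with a similar difference between the groups.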

How the data were processed

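The kit named for the libraries is a directional one with poly(A) mRNA selection, per the labels' protocols. The authors deposited estimated counts per gene, not normalized. The submitters' processing notes name fastp 0.20.1, kallisto 0.46.2, DESeq2 1.30.1 and hg38, without roles; the annotation and any use of strand are not given in the sources used here. The authors' deposited table of their comparison holds, per the file headers, a mean normalized signal, a log2 fold change with its standard error, a score (the test statistic) and a p-value with its adjusted form.

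Estimated counts were rounded, since the design had assumed whole counts, and genes were kept with filterByExpr. Libraries were scaled with TMM and compared with edgeR 4.0.16 in R 4.3.3 (quasi-likelihood F test, two-sided, no term but group). Benjamini-Hochberg adjustment ran over the whole set of genes tested. Standard errors are the absolute log2 fold change over the root of F. CPM is the rounded count divided by the library total. Of the gene IDs, 35410 matched GENCODE 29, which gave positions and lengths. The fit was also run on simulated counts. The changes set there were larger than those of EED, EZH1 and EZH2, so that run does not bear on changes that small. No batch is labelled. The members, lists, named-gene rule (all members, and up to 4 called genes of each list by smallest p) and alternatives were chosen with earlier results of these data known. The alternatives were DESeq2 1.42.0, limma-voom (limma 3.58.1), other scalings and filters, a replicate block, a stricter threshold, pseudogene counts added to the parent gene, another transcript length, counts not rounded and leaving out each library. The antisense gene JAZF1-AS1 was not analysed here. A marker on the original erythroid list is not reported here.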

Additional observations from a re-analysis of the deposited data

How the results depend on the processing

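The 3643 genes called became 2407 with DESeq2 and 2045 at an adjusted p under 0.01, where the 1955 called higher became 1255. The 1688 called lower became 1051 with DESeq2 and 790 at the stricter threshold, and ranged from 1070 (without JAZF1-SUZ12 replicate 2) to 1941 when 1 library was left out. The 5 members called became 3 at an adjusted p under 0.01 and ranged from 3 (without mock replicate 1) to 6 when 1 library was left out. The stricter threshold lowers counts by its construction. For DESeq2 and for each library left out, the cause was not tested. A group left with 1 library was assumed to vary like the other.

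With pseudogene counts added, the difference in log2 ratio was -1.31 for EED to SUZ12 and -1.04 for EZH1 plus EZH2 to SUZ12. With the median transcript length it was -1.03 for EZH1 plus EZH2 to SUZ12 and -0.37 for EED to EZH1 plus EZH2. That length also turned the mock log2 ratio of RBBP7 to RBBP4 to -0.43 and of KDM6B to KDM6A to 1.77. The gain of SUZ12 over that of JAZF1 ranged from 4.38 to 4.68 when 1 library was left out. That range does not cover the difference in JAZF1 between the deposited counts and the authors' deposited table. Of 25 genes, SUZ12P1 alone changed sign, its log2 fold change being -0.059 without mock replicate 1 and 0.105 without mock replicate 2, the lowest and highest of its values with 1 library left out. Over 9 other settings (224 values), 6 calls changed, and leaving out 1 library changed the call or sign of 24 of 100 values. Counts not rounded were an alternative chosen after seeing the data.

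Same-numbered libraries did not deviate together across genes (r = -0.00072 between replicate differences in the 2 groups). The labels do not say whether equal numbers mark a pair, and this r cannot exclude a shared preparation. A fit with a replicate block called 4061 genes, 2074 higher and 1987 lower, 5 of them members, and no call of the 25 genes changed. Among the 9 members, JAZF1 in mock had the lowest counts, 12 and 27.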
